A study of Mus musculus with 4 samples.

Results

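The core autophagy genes were examined in DP (CD4+CD8+ double-positive) thymocytes, the developing T cells that carry both co-receptors, with and without a Cre transgene directed at the deubiquitinase gene Usp8. A rule on gene names picked the genes, and it was set with earlier results of these data known. It took every probe of the array design whose gene name is Atg followed by a number. Named genes of the ULK and PI3K complexes, the WIPI and ATG8 families and the cargo receptors were added. The rule found 32 genes (70 probes) among the 28482 gene names of the array, and 29 of them were measured, among 13062 genes measured in all. A gene counted as measured when the scanner flagged 1 of its probes as well above background on both arrays of a genotype, so the 29 are not all the members. The single probes of Atg9b and Optn and both probes of Wipi1 did not meet this on either genotype, and no spot of the 70 probes was saturated.

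Sorted DP cells came from untreated, sex-matched littermates 6 to 12 weeks old. All carried loxP-flanked Usp8 alleles. USP8ff mice had no Cre and USP8ff_CD4Cre mice carried Cre driven by Cd4 regulatory sequences, which act from the DP stage onward. Each sample pooled cells of 2 mice, giving 2 pools per genotype and 8 mice in all, so p-values measure only how pools vary, and precision is limited by the number of arrays. There was no group with Cre and unfloxed Usp8, so what Cre itself does and what the deletion does cannot be told apart.

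Autophagy encloses cytoplasm in a double membrane, the autophagosome, and delivers it to the lysosome. The ULK kinase complex starts the process, a lipid kinase complex around VPS34 (Pik3c3) marks the membrane, and a pair of ubiquitin-like conjugation systems attach ATG8 proteins (the LC3 and GABARAP families) to its lipid. Cargo receptors then link ubiquitin-tagged material to the ATG8 proteins. In developing and mature T cells autophagy is known for its part in survival and in the turnover of mitochondria. Much of this pathway is regulated at the protein level, which arrays do not measure.

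The ATG8 family held differences of both signs, and its members are near relatives, so their probes were compared first. Each probe is 60 bases long. All 4 sequences shown are given 5′ to 3′ on the transcript's strand. Of 114 probes found in RefSeq promoter windows (GRCm38.p6), 112 read on the strand that the array design lists. Capitals mark the only run of at least 10 bases that probes of different ATG8 genes had in common.
Gabarap, chr11:69806095-69806154 (mm9, plus strand): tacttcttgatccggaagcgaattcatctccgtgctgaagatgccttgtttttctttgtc
Gabarap, chr11:69806196-69806255 (mm9, plus strand): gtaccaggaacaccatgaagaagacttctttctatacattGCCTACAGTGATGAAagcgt
Gabarapl1, chr6:129488695-129491167 (mm9, plus strand, crossing an intron): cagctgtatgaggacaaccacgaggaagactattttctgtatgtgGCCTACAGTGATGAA
Map1lc3b, chr8:124119924-124119983 (mm9, plus strand): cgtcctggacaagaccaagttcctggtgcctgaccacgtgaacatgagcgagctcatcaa
The shared run is 15 bases long, and with it in register the second Gabarap probe and the Gabarapl1 probe were identical at 43 of 55 bases (78.2%). In the other pairs, among 25 of probes of different ATG8 genes, the longest shared run was 7 bases. How far these probes also bind the relative's transcript was not tested.

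The labels were checked on Usp8. Its log2 signal was -0.23 and -0.40 in the USP8ff pools and -1.03 and -1.23 in the USP8ff_CD4Cre pools, with each array's 75th percentile set to 0, the scale of every log2 value given here. Both USP8ff_CD4Cre pools lay below both USP8ff pools, with a difference of -0.81 ± 0.13 (SE, 2 pools per genotype), or 56.9% of the control signal (limma, adjusted p = 0.60). The sources used here do not give where the deleted part lies relative to this probe. All 12 DP thymocyte markers were measured, with signals summing to 1822 and 1903 in USP8ff against 1913 and 1933 in USP8ff_CD4Cre. These sums weigh the brightest markers, Dntt and Cd8b1, most. Of the 12, 8 had negative and 4 positive differences (median -0.058, 33.3% positive beside 54.8% of all genes). The genotypes lay apart for 66.7% of them, 5 lower and 3 higher in USP8ff_CD4Cre, beside 40.6% of all genes. Of 15 macrophage and dendritic cell markers 5 were measured, with sums of 2.18 and 2.48 in USP8ff against 1.27 and 1.59 in USP8ff_CD4Cre, while the defining markers Adgre1, Csf1r, Itgam and Itgax were not well above background in either genotype. Within this list Ctss (-1.96) and Mpeg1 (-1.09) were lower in both USP8ff_CD4Cre pools, C1qb (0.25) was higher in both, and Cd68 and Lyz2 overlapped. Of 8 NK and cytotoxic markers 5 were measured, with sums of 4.28 and 4.37 against 3.94 and 5.29. Among them Nkg7 (-2.09, adjusted p = 0.29 in limma, the smallest of all genes), Il2rb (-2.02) and Prf1 (-0.86) were lower in both USP8ff_CD4Cre pools, and Gzma (0.42) and Tbx21 (0.15) higher in both. These single markers were named after their values were seen. Il2rb and C1qb were well above background on only 3 of the 4 arrays, so part of each difference rests on a dim signal. All 19 markers of dividing cells were measured, mitotic genes such as Plk1 and Ccnb1 and DNA replication genes such as Mcm2 and Pcna. All 19 had positive differences (median 0.49, 0 past the adjusted threshold), with sums of 609 and 538 against 675 and 835. The part of these marker levels in the autophagy values was not tested. In sorted pools, fewer cells of a type and less RNA per cell cannot be told apart.

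No autophagy gene passed the test. In limma, with Benjamini-Hochberg adjustment over the 13062 genes, 0 of 29 had an adjusted p under 0.05, and percent called over all genes was also 0. The smallest adjusted p was 0.66 among the autophagy genes and 0.29 among all genes. Before adjustment 2 of 29 had p under 0.05, Atg4c with a negative and Map1lc3a with a positive difference, a share of 6.90% beside 7.43% of all genes. The differences ran from -0.40 to 0.27, with a median of -0.047 beside 0.021 for all genes. All 29 lay inside the middle 95% of the differences of all genes, which ran from -0.49 to 0.45.

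**Figure D1:**
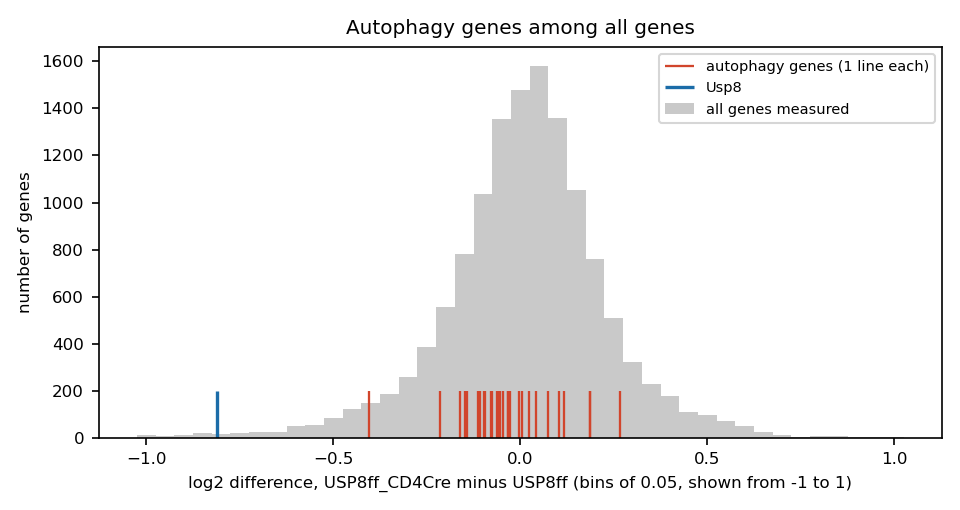
Histogram of the log2 difference (USP8ff_CD4Cre minus USP8ff, horizontal axis) over the 13062 genes measured, as the number of genes per bin of 0.05 (vertical axis, grey bars; differences beyond 1 in either direction are not drawn). Red lines mark the 29 autophagy genes, which run from -0.40 to 0.27, and the blue line marks Usp8 at -0.81; the heights of the lines carry no value.

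The data bounded the size of these differences. The 95% confidence interval of the difference lay within a 2-fold change in either direction for 29 of 29 autophagy genes, beside 93.7% of all genes, and within a 1.5-fold change for 27 of 29, beside 71.2%. The exceptions were Atg4c on the lower side (-0.71) and Atg16l2 on the higher side (0.59). The interval contained 0 for 27 of 29. The median SE was 0.118, beside 0.127 for all genes. The median absolute difference between genotypes was 0.078, that between the 2 USP8ff pools 0.139 and that between the 2 USP8ff_CD4Cre pools 0.113. All genes had the same order, at 0.118, 0.152 and 0.129, and a difference between means of 2 pools varies less than one between single pools. A p above the threshold does not show that expression was equal.

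**Figure D2:**
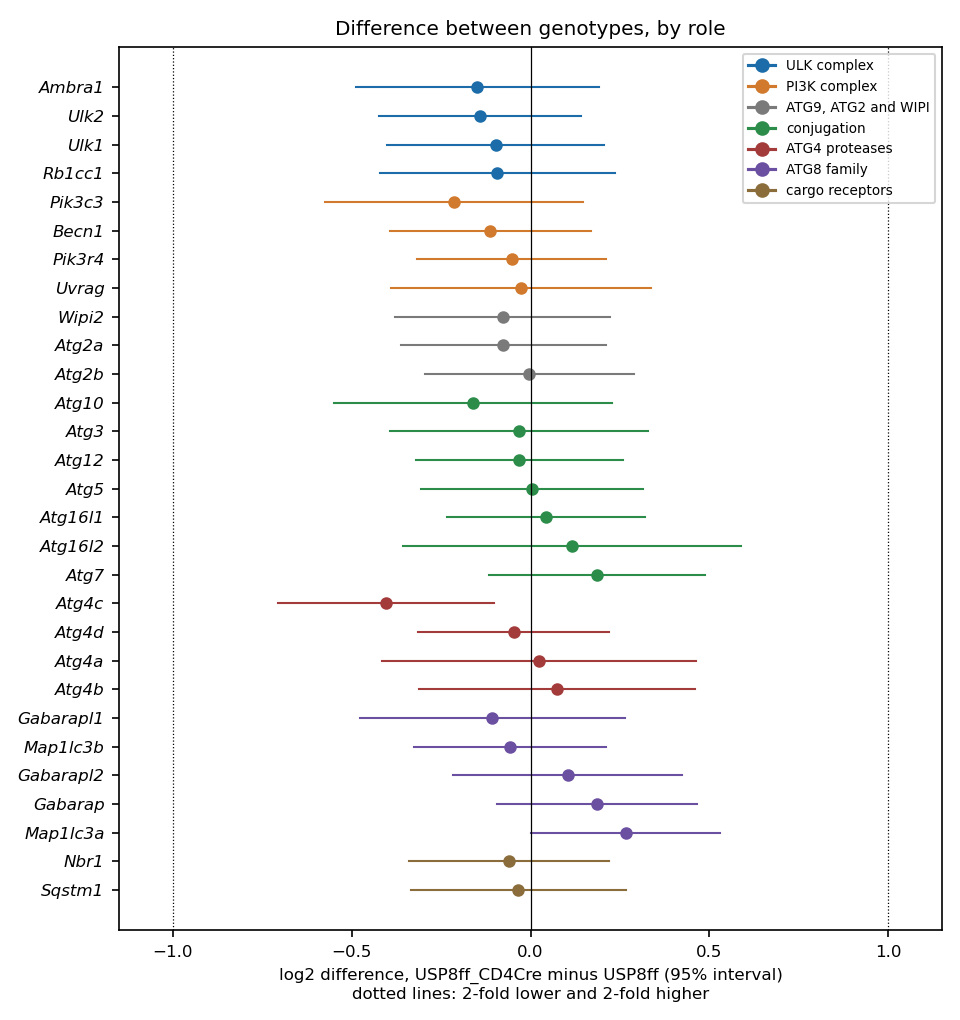
Log2 difference between genotypes (horizontal axis, USP8ff_CD4Cre minus USP8ff) for the 29 measured autophagy genes, grouped and coloured by role, as points with 95% confidence intervals from limma (2 pools per genotype). Dotted lines mark 2-fold changes, which no interval reaches; the intervals of Atg4c and Map1lc3a leave out 0.

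Negative differences were more frequent than positive ones, and this split moved with single pools. Of the 29 genes 9 had positive differences (31.0%, beside 54.8% of all genes) and 20 had negative ones. Without USP8ff replicate 2 the positive share was 48.3%, beside 57.2% of all genes, and the median difference -6.9e-05. Without USP8ff_CD4Cre replicate 2 the share was 34.5%, beside 56.0%, and the median -0.015. Without the filter on dim probes no sign changed among the 29, and the share over all 32 genes was 37.5%. The share of all genes then moved from 54.8% to 35.8%, as genes not well above background came in. The comparison with all genes therefore depended on the filter. USP8ff replicate 2 stood above the gene's mean over the 4 arrays for 20 of 29 genes, against 11 for USP8ff replicate 1, 16 for USP8ff_CD4Cre replicate 1 and 9 for USP8ff_CD4Cre replicate 2. The pools of the genotypes did not overlap for 9 genes. Atg7, Gabarap and Map1lc3a were higher in both USP8ff_CD4Cre pools (3 of 29, beside 24.3% of all genes), and 6 genes were lower in both (beside 16.3% of all genes): Ulk2, Pik3c3, Pik3r4, Becn1, Atg4c and Map1lc3b.

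**Figure D3:**
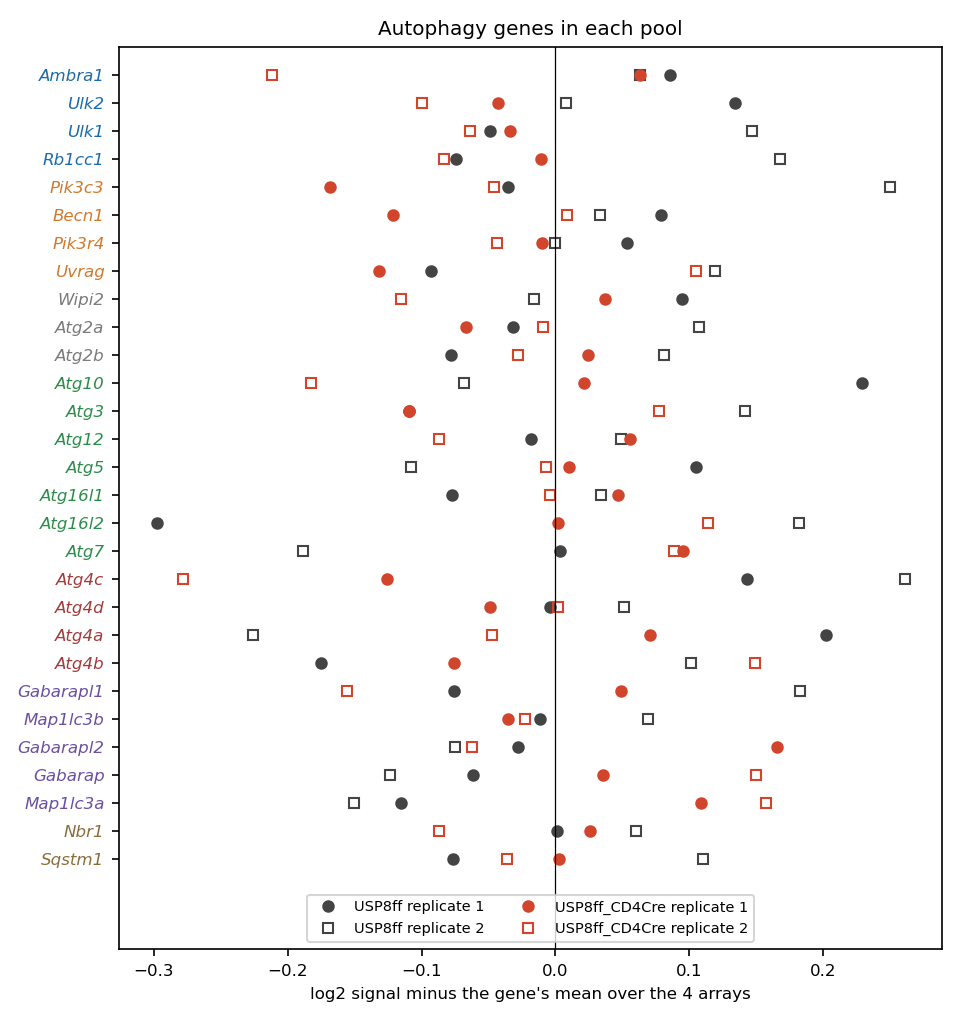
Log2 signal of each pool minus the gene's mean over the 4 arrays (horizontal axis) for the 29 measured autophagy genes, with gene names coloured by role in the order of the difference plot. Grey symbols are USP8ff and red symbols USP8ff_CD4Cre pools; circles are replicate 1 and squares replicate 2. The colours lie apart in 9 genes, and USP8ff replicate 2 lies right of 0 in 20 genes.

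The ULK complex phosphorylates downstream autophagy proteins to start the process. The 4 measured genes grouped here, Ulk1, Ulk2, Rb1cc1 and the adaptor Ambra1, all had negative differences (median -0.12, none past the test). Atg13 and Atg101 of this complex fall outside the name rule and are given below. The kinase gene Ulk1 read 5.33 and 5.53 in USP8ff and 5.35 and 5.32 in USP8ff_CD4Cre, a difference of -0.098 ± 0.12 (SE). Its 2 genotypes overlapped, with USP8ff replicate 2 the highest pool, and without that pool the Ulk1 difference was -6.9e-05. The second kinase gene, Ulk2, had 0.017 and -0.11 in USP8ff and -0.16 and -0.22 in USP8ff_CD4Cre (-0.14 ± 0.11, SE), without overlap. Ambra1, an adaptor between the kinase and the lipid kinase complexes, had 1.29 and 1.27 in USP8ff and 1.27 and 0.99 in USP8ff_CD4Cre, so that its difference of -0.15 ± 0.13 (SE) came from USP8ff_CD4Cre replicate 2, without which it was -0.012.

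Rb1cc1 (FIP200), the scaffold of the ULK complex, was covered by 5 kept probes spread along its transcript on chromosome 1. The brightest probe (chr1:6264478-6264537, mm9) gave 2.55 and 2.79 in USP8ff and 2.61 and 2.54 in USP8ff_CD4Cre, a difference of -0.093 ± 0.13 (SE), with overlap. All 5 probes had negative differences, from -0.30 to -0.093, and at the other 4 both USP8ff_CD4Cre pools lay below both USP8ff pools. The probe at chr1:6265434-6265493 read 1.58 and 1.80 in USP8ff and 1.43 and 1.39 in USP8ff_CD4Cre, a difference of -0.28 ± 0.13 (SE). The probes read the same 4 RNA pools and are not replicates of the genotype. Without USP8ff replicate 2 the difference of the brightest probe was 0.027.

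The class III PI3K complex makes the lipid that recruits later factors. All 4 measured members had negative differences (median -0.083, none past the test), and 3 of the 4 were lower without overlap, beside 16.3% of all genes. The catalytic subunit gene Pik3c3 had 0.29 and 0.57 in USP8ff and 0.15 and 0.28 in USP8ff_CD4Cre, a difference of -0.21 ± 0.14 (SE) that was -0.071 without USP8ff replicate 2. The gap between its groups was narrower than the spread within USP8ff, and the same held for Becn1 and Pik3r4. Becn1, the Beclin 1 scaffold, had 2.75 and 2.71 in USP8ff and 2.55 and 2.68 in USP8ff_CD4Cre (-0.11 ± 0.11, SE). Pik3r4, the regulatory subunit VPS15, had 1.74 and 1.69 in USP8ff and 1.68 and 1.64 in USP8ff_CD4Cre (-0.053 ± 0.10, SE). Uvrag, a subunit of the complex that acts on endosomes and at autophagosome maturation, overlapped, with 3.77 and 3.98 in USP8ff and 3.73 and 3.97 in USP8ff_CD4Cre (-0.026 ± 0.14, SE).

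ATG2 proteins move lipid into the growing membrane and WIPI proteins bind its phosphoinositide. The 3 genes measured in this group all overlapped between genotypes. Atg2a had 1.20 and 1.34 in USP8ff and 1.17 and 1.22 in USP8ff_CD4Cre (-0.076 ± 0.11, SE). Atg2b had 0.48 and 0.64 in USP8ff and 0.58 and 0.53 in USP8ff_CD4Cre (-0.0037 ± 0.11, SE), a difference near 0 whose sign turned under quantile normalization (0.0034). Wipi2, which recruits ATG16L1, had 1.56 and 1.45 in USP8ff and 1.5 and 1.35 in USP8ff_CD4Cre (-0.078 ± 0.12, SE), and 3 of its 4 kept probes had negative differences.

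The conjugation enzymes were mixed: 4 of 7 had positive and 3 negative differences, with a median of 0.0031 and none past the test. Atg7, the E1-like enzyme shared by both conjugation systems, had -1.85 and -2.04 in USP8ff and -1.76 and -1.76 in USP8ff_CD4Cre, a difference of 0.19 ± 0.12 (SE). It was the only one of the 7 whose genotypes did not overlap. Atg3, the E2-like enzyme for ATG8, had 1.85 and 2.10 in USP8ff and 1.85 and 2.04 in USP8ff_CD4Cre (-0.032 ± 0.14, SE). Atg10, the E2-like enzyme for ATG12, had -0.90 and -1.20 in USP8ff and -1.11 and -1.31 in USP8ff_CD4Cre (-0.16 ± 0.15, SE), with a second probe at -0.21.

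The ubiquitin-like Atg12 and its partner Atg5 differed little between the pools. Atg5 had 1.78 and 1.57 in USP8ff and 1.69 and 1.67 in USP8ff_CD4Cre (0.0031 ± 0.12, SE), so the 2 USP8ff pools enclosed both others. Atg12 had 3.71 and 3.78 in USP8ff and 3.79 and 3.64 in USP8ff_CD4Cre (-0.031 ± 0.11, SE), while its other 2 kept probes had positive differences of 0.075 and 0.095. Atg16l1, which places the conjugate on the membrane, had 3.86 and 3.97 in USP8ff and 3.98 and 3.93 in USP8ff_CD4Cre (0.043 ± 0.11, SE), and this sign turned under quantile normalization (-0.021). Its relative Atg16l2 varied most within USP8ff, at 1.86 and 2.34, and had 2.16 and 2.28 in USP8ff_CD4Cre (0.12 ± 0.18, SE), a difference that was 0.36 without USP8ff replicate 2 and -0.12 without USP8ff replicate 1.

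ATG4 proteases trim ATG8 precursors and release ATG8 from lipid. Atg4c (chr4:98926365-98926424, mm9) had -3.05 and -2.93 in USP8ff and -3.32 and -3.47 in USP8ff_CD4Cre. Both USP8ff_CD4Cre pools lay below both USP8ff pools. The difference of -0.40 ± 0.12 (SE; 95% interval -0.71 to -0.10), or 75.6% of the control signal, had the smallest unadjusted p of the 29 genes and an adjusted p of 0.66 in limma. This probe was dim: the lowest signals well above background were -3.87 and -4.19 on the USP8ff arrays and -4.05 and -4.49 on the others. With normexp background correction the Atg4c difference was -0.13. The other 2 Atg4c probes were not well above background on either genotype.

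The other ATG4 genes overlapped between genotypes. Atg4b had 0.033 and 0.31 in USP8ff and 0.13 and 0.36 in USP8ff_CD4Cre (0.074 ± 0.15, SE). Atg4a had 0.88 and 0.45 in USP8ff and 0.75 and 0.63 in USP8ff_CD4Cre (0.024 ± 0.17, SE), with its USP8ff pools the highest and the lowest of the 4. Atg4d had 1.02 and 1.08 in USP8ff and 0.98 and 1.03 in USP8ff_CD4Cre (-0.047 ± 0.11, SE), and its other 2 kept probes had differences of 0.00025 and 0.058.

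The ATG8 proteins themselves coat the autophagosome and bind cargo receptors. Of 5 genes 3 had positive and 2 negative differences, with a median of 0.10 and none past the test. That median is the value of Gabarapl2, read by a dim probe, and was -0.011 without USP8ff_CD4Cre replicate 1. Over the 8 kept probes of the family the median was 0.023. Map1lc3a (LC3A; chr2:155103435-155103494, mm9) had 0.088 and 0.053 in USP8ff and 0.31 and 0.36 in USP8ff_CD4Cre. The 2 pools of each genotype lay close together and the genotypes apart. The difference was 0.27 ± 0.10 (SE; 95% interval 0.0017 to 0.53), or 120% of the control signal (100.1% to 144%), with an adjusted p of 0.67 in limma. It ran from 0.21 to 0.29 over the alternative settings.

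Gabarap, the founding member of the second ATG8 subfamily, had 1.87 and 1.80 in USP8ff and 1.96 and 2.08 in USP8ff_CD4Cre at the first of its probes shown above, a difference of 0.19 ± 0.11 (SE). Its other probe, which holds the capitals, read 1.78 and 1.75 in USP8ff and 1.93 and 1.98 in USP8ff_CD4Cre (0.19 ± 0.11, SE). At each probe both USP8ff_CD4Cre pools lay above both USP8ff pools. The Gabarapl1 probe with the same capitals went the other way, with -1.43 and -1.20 in USP8ff and -1.55 and -1.49 in USP8ff_CD4Cre (-0.21 ± 0.13, SE), also without overlap. The brighter Gabarapl1 probe, which stood for the gene, had 3.67 and 3.92 in USP8ff and 3.79 and 3.59 in USP8ff_CD4Cre (-0.11 ± 0.15, SE), with overlap.

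Map1lc3b (LC3B), the ATG8 protein used most as an autophagosome marker, had 4.87 and 4.95 in USP8ff and 4.85 and 4.86 in USP8ff_CD4Cre at the probe shown above (-0.058 ± 0.11, SE). The genotypes did not overlap, by a gap smaller than the spread within USP8ff. Its second probe had a difference of -0.14 and likewise no overlap. With normexp background correction the difference of Map1lc3b was -0.20, taken at the probe brightest under that setting. Gabarapl2 (GATE-16) had -3.06 and -3.11 in USP8ff and -2.87 and -3.10 in USP8ff_CD4Cre (0.10 ± 0.13, SE). Of its USP8ff_CD4Cre pools only replicate 1 lay above both USP8ff pools, and without it the difference was -0.011.

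Cargo receptors bind ubiquitin and ATG8 and are themselves degraded by autophagy. Sqstm1 (p62) had 5.67 and 5.85 in USP8ff and 5.75 and 5.71 in USP8ff_CD4Cre (-0.034 ± 0.12, SE; 95% interval -0.34 to 0.27). Both USP8ff_CD4Cre pools lay between the USP8ff pools. Nbr1 had 4.28 and 4.33 in USP8ff and 4.30 and 4.19 in USP8ff_CD4Cre (-0.061 ± 0.11, SE), with overlap, and all 3 of its probes had negative differences.

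**Figure D4:**
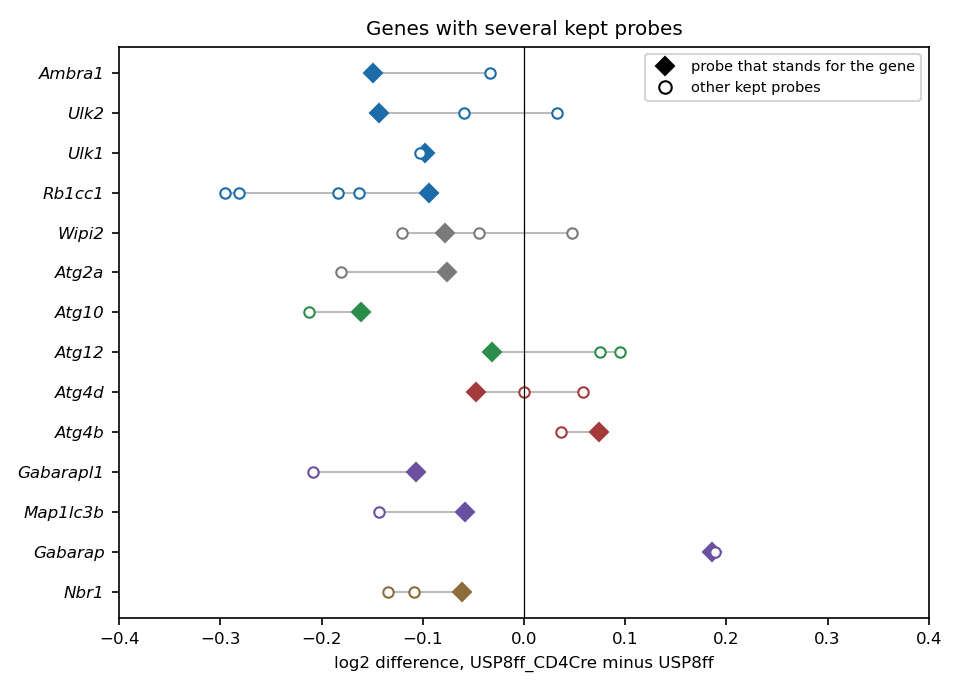
Log2 difference between genotypes (horizontal axis, USP8ff_CD4Cre minus USP8ff) at every kept probe of the 14 autophagy genes with more than 1, coloured by role as in the difference plot. Filled diamonds are the probes that stand for the gene and open circles the others; all probes of a gene share a sign in 10 of the 14, including all 5 of Rb1cc1 and both of Gabarap.

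Probe by probe the picture was similar. Of the 52 kept probes, 35 had negative and 17 positive differences, with a median of -0.056 beside 0.013 for all 19038 kept probes. The positive share was 32.7%, beside 53.1% of all kept probes. Probes of 1 gene read the same RNA pools and are not separate observations. In the ULK group 11 of 12 kept probes were negative, 5 of them from Rb1cc1, the exception being a Ulk2 probe at 0.033. In the PI3K complex 4 of 4 were negative. In the ATG8 family 4 of 8 were negative. Only the Atg4c probe had an unadjusted p under 0.05 (1 of 52, beside 6.67% of all kept probes). None of the 70 probes was among the 78 in the authors' deposited table of fold changes, in which the smallest fold was 2.0.

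Further genes of the same complexes carry older names in the array design and fall outside the name rule. Atg13, the ULK complex subunit that couples it to nutrient signals, had 0.80 and 0.90 in USP8ff and 0.41 and 0.86 in USP8ff_CD4Cre (-0.22 ± 0.17, SE). Atg14, the PI3K subunit specific to autophagy, had 0.96 and 0.73 in USP8ff and 0.91 and 0.41 in USP8ff_CD4Cre (-0.19 ± 0.20, SE). Atg101, the partner of ATG13, had 4.50 and 4.57 in USP8ff and 4.61 and 4.68 in USP8ff_CD4Cre (0.11 ± 0.11, SE). It was higher in both USP8ff_CD4Cre pools and opposite in sign to the 4 measured genes of the ULK group.

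Genes around the core pathway also gave no calls. Of 56 listed regulators (mTOR, AMPK, TSC, Rag and FOXO genes among them) 48 were measured, 28 with positive and 20 with negative differences (58.3% positive, beside 54.8% of all genes; median 0.048). An unadjusted p under 0.05 was found for 2 of the 48 (4.17%, beside 7.43% of all genes). Those were Rragd, a Rag GTPase that brings mTORC1 to the lysosome, and Usp10, a deubiquitinase of Beclin 1. Rragd had 0.47 and 0.68 in USP8ff and 1.01 and 0.90 in USP8ff_CD4Cre, a difference of 0.38 ± 0.13 (SE). Usp10 had 1.54 and 1.59 against 1.81 and 1.86 (0.27 ± 0.10, SE), and Hmgb1, a chromatin protein that can bind Beclin 1, had 4.97 and 4.89 against 5.10 and 5.25 (0.25 ± 0.12, SE). All 3 lay apart between genotypes, and their adjusted p in limma ran from 0.66 to 0.70. The genotypes lay apart for 45.8% of the 48 regulators and 40.6% of all genes, and naming by smallest p favours such genes.

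Of 22 fusion and transport genes 19 were measured, 8 with positive and 11 with negative differences (median -0.019). The positive share was 42.1%, beside 54.8% of all genes. An unadjusted p under 0.05 in limma was found for 0 of the 19, beside 7.43% of all genes. Those with the smallest p were Tbc1d14 (-0.27 ± 0.11, SE), Vps39 of the HOPS tethering complex (-0.21 ± 0.10, SE) and Tecpr1 (-0.21 ± 0.12, SE), each lower in both USP8ff_CD4Cre pools. Picking by smallest p favours genes that lie apart, and 31.6% of the 19 did, beside 40.6% of all genes. Of 20 mitophagy and other selective receptors 16 were measured, 9 with positive and 7 with negative differences (median 0.020). Their positive share was 56.25%, beside 54.8% of all genes. The ER-phagy receptor Retreg1 had -0.88 and -0.84 in USP8ff and -1.09 and -1.53 in USP8ff_CD4Cre (-0.45 ± 0.17, SE; adjusted p = 0.67 in limma), and was the only one of the 16 with an unadjusted p under 0.05 (6.25%, beside 7.43% of all genes). A second ER-phagy receptor, Ccpg1, had -0.23 ± 0.11 (SE), while the mitophagy receptor Bnip3l had 0.21 ± 0.11 (SE).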

How the data were processed

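Per the file headers, the 4 one-colour arrays lay on 1 slide and were read by Feature Extraction 10.7.3.1, and the deposited intensity values are background-subtracted within each array, with no normalization across them. A fold and a p-value for 78 probes stand in the authors' deposited table, whose software the sources used here do not give. A deposited table with 4 columns of values whose names match no label was not used.

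Each array had 43379 non-control spots, whose 75th percentile was subtracted from the log2 signals. Outlier spots were left out and spots of a probe averaged. Of 41174 probes, 17 had no value and 19038 (46.2%) were well above background on both arrays of a genotype, and the one with the highest mean stood for its gene. Names came by accession from a RefSeq table (GRCm38.p6) for 26690 probes and otherwise from the array design. Positions are mm9, and exon or UTR annotation was not used here. The comparison of genotypes used limma 3.58.1 (R 4.3.3; lmFit, eBayes without trend or block), adjusted over 13062 genes, threshold 0.05, and tested on simulated data. Between 45.0% and 48.9% of probes per array were well above background.

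Named were every member, Usp8, the marker lists given above, and the 3 genes of smallest unadjusted p in each further autophagy list. Other marker lists covered B cells (2 of 7 measured), stroma (3 of 7), erythroid cells (2 of 5) and granulocytes (1 of 7). Their values are not given, and no gene of theirs passed the adjusted threshold. Genes outside the name rule were added because they belong to the same complexes. Members and lists were chosen with earlier results of these data known. Alternatives were other scalings, background correction, filters, probe rules, a trend, outlier spots kept, a replicate block, and each array left out. Figures used matplotlib 3.10.9 in Python 3.11.15.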

Additional observations from a re-analysis of the deposited data

How the results depend on the processing

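In the 14 alternative settings 0 autophagy genes and 0 genes in all passed the adjusted threshold in limma, the lowest adjusted p of an autophagy gene was 0.45 (Atg4c with the replicate block), and 15 of 29 genes kept their sign (3 positive: Atg7, Gabarap and Map1lc3a; 12 negative). The number of autophagy genes with an unadjusted p under 0.05, 2 as reported, was 0 with an eBayes trend, without the filter on dim probes and with normexp background, and 1 with every probe tested, median scaling and the replicate block. It ran from 0 (without USP8ff replicate 2) to 1 when an array was left out, and the number over all genes, 970, from 396 (without USP8ff_CD4Cre replicate 2) to 1229. The cause of these changes was not tested. Same-numbered pools are not stated to share a litter or day. Their deviations correlated at 0.32 over 13062 genes; with the replicate block 10.2% of genes had an unadjusted p under 0.05 and the smallest adjusted p was 0.091. The share of autophagy genes with a positive difference ran from 20.7% to 48.3% when an array was left out, and from 27.6% to 37.9% in the other settings; without the filter the median of all genes moved to -0.13. Quantile normalization turned the sign of Atg16l1 (-0.021), Atg2b (0.0034) and Atg5 (-0.022). Normexp turned Atg2b (0.0021) and Atg5 (-0.020), median scaling Atg5 (-0.0051), and the mean of probes Atg12 (0.046) and Atg4d (0.0038). Leaving out 1 array turned the sign of 13 genes, whose differences then ran from -0.10 to 0.041 for Atg12, -0.013 to 0.098 for Atg16l1, -0.12 to 0.36 for Atg16l2, -0.083 to 0.076 for Atg2b, -0.16 to 0.094 for Atg3, -0.19 to 0.24 for Atg4a, -0.065 to 0.21 for Atg4b, -0.10 to 0.11 for Atg5, -0.24 to 0.022 for Gabarapl1, -0.011 to 0.22 for Gabarapl2, -0.21 to 0.027 for Rb1cc1, -0.13 to 0.059 for Sqstm1 and -0.14 to 0.092 for Uvrag. The lone array of a group is then assumed to vary like the other group. The 3 genes not measured were not well above background, and normexp moved the dim probes of Atg4c (-0.40 to -0.13) and Gabarapl2 (0.10 to 0.21).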

Other observations

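A further Atg3 probe was printed in 10 spots per array and was not among those kept. Its spots well above background numbered 1 and 3 on the USP8ff arrays and 2 and 10 on the USP8ff_CD4Cre arrays, and the SD of its log2 signal over spots within an array ran from 0.19 to 0.50. A feature that the array design describes as similar to LC3B and places on chromosome 4, away from Map1lc3b on chromosome 8, is listed as NAP102248-1. Its log2 signal was 3.08 and 3.21 in USP8ff against 3.14 and 3.09 in USP8ff_CD4Cre, a difference of -0.029 ± 0.11 (SE).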
